A study of Mus musculus with 6 samples.

Results

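Ebi3, Il27, Il12b, Il6, Tnf, Csf1 and Il1rn, 7 cytokine genes that dendritic cells can use to instruct T cells and other myeloid cells, were followed in type 1 conventional dendritic cells (cDC1) with and without engagement of CD40. The genes were taken by symbol from the platform annotation. All 7 were among the 12780 genes measured, each by 1 probe set (10445977 for Ebi3, 10567987 for Il27, 10375331 for Il12b, 10520452 for Il6, 10450501 for Tnf, 10501164 for Csf1 and 10469816 for Il1rn). The arrays came from migratory cDC1 of C57BL/6 mice of WT genotype, taken from lymph nodes that drain the skin, with 3 anti-CD40 stimulated and 3 unstimulated samples, 1 array each. Cells of both groups were sorted as B220- CD326- MHC II high CD11c intermediate XCR1+ Sirpa- and CD40+, so the unstimulated cells also carried CD40, and RNA was labelled with a kit for picogram amounts. The sources used here do not give the dose or duration of the antibody, whether mice or cells received it, the age of the mice, or whether a sample pooled several mice. The samples are called biological replicates with no word on separate animals, so p-values reflect the spread among these arrays, which may be technical.

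IL-12 and IL-27 are cytokines made of a pair of chains encoded by separate genes, so the output of the whole cytokine depends on both partners. Il12b encodes p40, which pairs with p35 to form IL-12 and with p19 to form IL-23. Ebi3 encodes a chain of related structure that pairs with p28, the product of Il27, to form IL-27. In dendritic cells CD40 acts through TRAF adaptors and NF-kappa B, and CD40 ligand on helper T cells is a known inducer of IL-12 secretion. cDC1 are a major source of IL-12 for T cell responses.

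Intensities are the deposited values on a linear scale, where the median over all genes and arrays was 52.4, and differences are given on the log2 scale as stimulated minus unstimulated. A gene was called when its limma p, adjusted by Benjamini-Hochberg over all 12780 genes, was under 0.05. The cytokine genes separated into those with higher values on every stimulated array and those whose groups overlapped. Csf1, Ebi3 and Il1rn were 3.18-fold, 3.0-fold and 2.0-fold higher in stimulated cells. Il27, Tnf, Il12b and Il6 had differences between -0.28 and 0.20 on the log2 scale, and their groups overlapped. Of the 7 genes 0 were called by limma, against 0.0156% of all genes called higher (2 genes) and 0% called lower. At an unadjusted p under 0.05, 3 of the 7 were higher and 0 lower, where the shares of all genes were 2.07% and 1.42%. The groups did not overlap for 3 of the 7, all with higher stimulated values. Over all genes that share was 3.68% for stimulated values above and 3.46% for stimulated values below the unstimulated ones. Of the 7 differences 5 were positive, against 51% over all genes. The median difference of the 7 genes was 0.20, and that of all genes 0.005. The 7 genes were chosen with earlier results of these data known, so these shares are descriptions and no test of the set. In bulk RNA of sorted cells, a change in the share of cells that make a transcript and a change in the RNA per cell cannot be told apart.

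**Figure D1:**
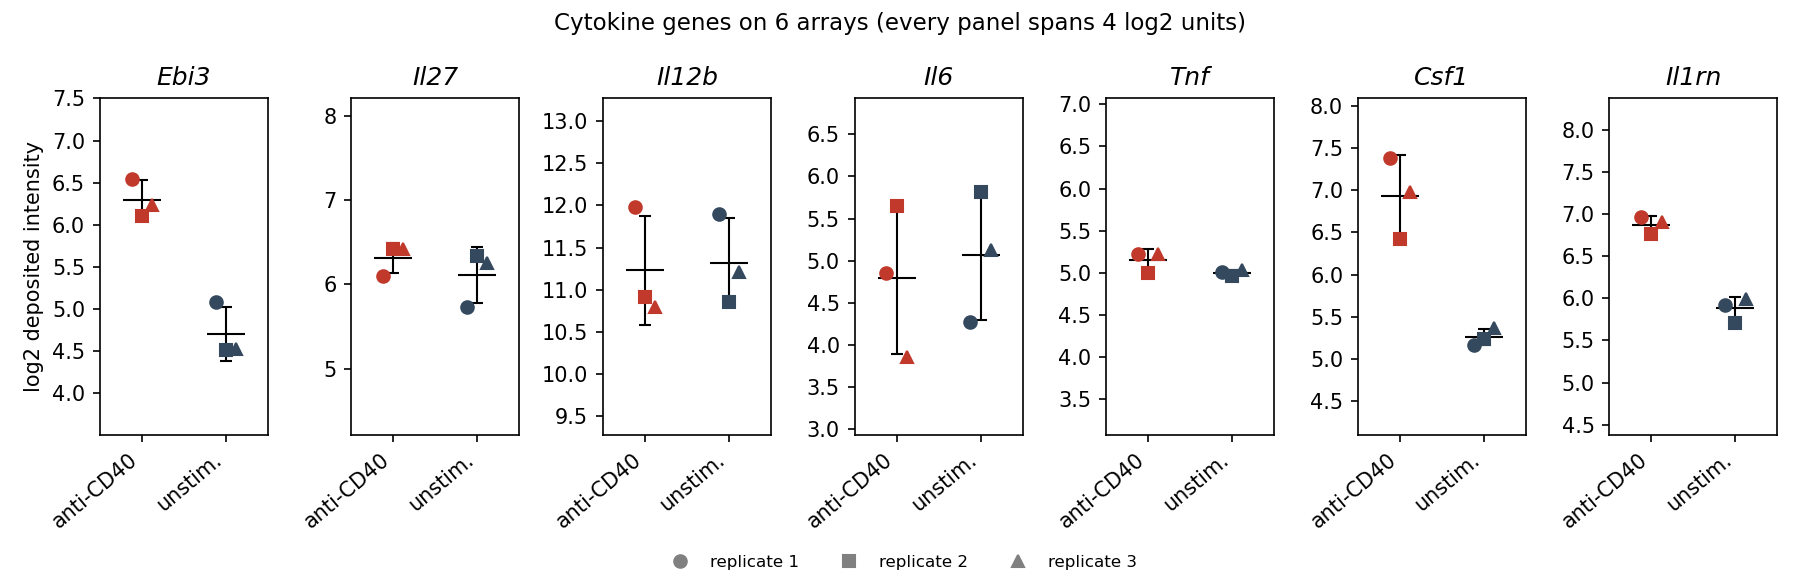
Log2 deposited intensity (y axis) of each gene on each array, with anti-CD40 stimulated samples in red and unstimulated samples in dark blue. Marker shapes give the replicate number, horizontal bars the mean and whiskers the SD of 3 arrays. The groups do not overlap for Ebi3, Csf1 and Il1rn, while for Il12b both arrays numbered 1 lie above all the others.

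Ebi3 had the highest rank of the 7 genes, at 10 of 12780 by p. Its intensity was 93.7, 68.5 and 75.8 on the stimulated arrays, against 34.0, 23.0 and 23.1 on the unstimulated arrays. Every stimulated array was thus above every unstimulated array, and within each group the array numbered 1 was the highest. On the log2 scale the levels were 6.30 ± 0.23 in stimulated and 4.71 ± 0.32 in unstimulated cells (SD, n = 3 each). Ebi3 thus differed by 1.58 ± 0.22 (SE, 95% interval 1.06 to 2.11; limma adjusted p = 0.208). No probe set of the table had both group geometric means under 20, and unstimulated Ebi3 lay close above that value. Background was not analysed here, so the 3.0-fold ratio of intensities may understate the ratio of RNA.

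Il27, whose p28 product completes IL-27, differed less. It had 68.7, 85.6 and 85.5 on the stimulated arrays, against 53.2, 81.0 and 76.3 on the unstimulated arrays. The groups overlapped, since the stimulated array numbered 1 lay below 2 of the 3 unstimulated arrays. Il27 differed by 0.20 ± 0.22 (SE, limma adjusted p = 0.99997). Its 95% interval of -0.31 to 0.71 corresponds to folds of 0.809 to 1.64. That interval still holds an increase of more than 1.5-fold, so an equal level in both groups was not shown.

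Il12b, which encodes the p40 chain of IL-12 and IL-23, was bright in both groups. It had 4042, 1934.5 and 1771 on the stimulated arrays, against 3809, 1841 and 2364 on the unstimulated arrays. The array numbered 1 was the highest in each group, and the highest array exceeded the lowest by 2.28 times among stimulated and 2.07 times among unstimulated samples. The ratio of the group geometric means was 0.942 (95% interval 0.499 to 1.78), smaller in size than the spread within each group. On the log2 scale Il12b was at 11.23 ± 0.65 in stimulated and 11.32 ± 0.53 in unstimulated cells (SD, n = 3 each), with a difference of -0.09 ± 0.39 (SE) and a limma adjusted p of 0.99997. The sign turned when 1 array was left out. The difference was 0.07 without stimulated replicate 2, 0.13 without stimulated replicate 3 and 0.20 without unstimulated replicate 1, and -0.46 without stimulated replicate 1. The arrays numbered 1 also had the widest spread of log2 intensities, with interquartile ranges of 2.31 in the stimulated and 2.19 in the unstimulated sample, against 1.75 and 2.03 in the other stimulated and 1.74 and 1.92 in the other unstimulated samples. With the arrays' interquartile ranges as a covariate, Il12b differed by -0.26 ± 0.22 (SE, limma adjusted p = 0.888), a smaller SE than the 0.39 without it. The cause of the scatter in the Il12b values was not tested.

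Since subunits of 1 array share its labelling and scaling, Ebi3 was also set against its partner and against Il12b within each array. Such a ratio removes a shift common to an array but not a difference in spread. The interquartile ranges of the arrays ran from 1.74 to 2.31. The log2 ratio of Ebi3 to Il27 was higher by 1.38 in stimulated samples, and that of Ebi3 to Il12b by 1.67. The groups did not overlap for either ratio. The exact two-sided permutation test gave p = 0.10 for each ratio, which is the smallest p that 3 against 3 allows, so neither could pass 0.05. When each array was left out in turn, the differences ran from 1.15 to 1.75 and from 1.48 to 1.92. Unequal change of the chains was therefore not shown by this test, and secreted cytokine was not measured. Of 5 listed IL-12 family subunits 3 were measured, Ebi3, Il27 and Il12b. The genes of p35 and p19 (Il12a and Il23a) were not among the measured subunits.

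Csf1 encodes the growth factor M-CSF, on which monocytes and macrophages depend for survival. It had 167.0, 85.5 and 126.3 on the stimulated arrays, against 35.9, 37.8 and 41.2 on the unstimulated arrays. The lowest stimulated array was above the highest unstimulated array, and the stimulated arrays were spread more widely (SD 0.49 on the log2 scale) than the unstimulated ones (SD 0.10). Its difference of 1.67 ± 0.26 (SE, 95% interval 1.06 to 2.27) had the largest size among the 7 genes in the limma fit (adjusted p = 0.209, rank 18 by p). Without stimulated replicate 1, the brightest array, it was 1.44. The unstimulated values of Csf1 lay below the all-gene median of 52.4, and background was not analysed here.

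Il1rn encodes the secreted antagonist that occupies the IL-1 receptor without signalling. It had 124.5, 108.6 and 119.2 on the stimulated arrays, against 60.7, 52.5 and 63.6 on the unstimulated arrays. The groups did not overlap, and the values within each group were close together, with log2 levels of 6.87 ± 0.10 in stimulated and 5.88 ± 0.14 in unstimulated cells (SD, n = 3 each). The difference was 1.0 ± 0.16 (SE, 95% interval 0.61 to 1.38; limma adjusted p = 0.245, rank 22 by p). The agonist Il1b, which signals through the receptor that the antagonist blocks, had 28.5, 35.4 and 36.0 on the stimulated arrays, against 31.1, 63.4 and 74.7 on the unstimulated arrays. Its groups overlapped and it differed by -0.67 ± 0.33 (SE, limma adjusted p = 0.99997).

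Il6, an inflammatory cytokine that also acts on T and B cells, had the widest scatter of the 7 genes. It had 29.0, 50.3 and 14.5 on the stimulated arrays, against 19.2, 55.9 and 34.9 on the unstimulated arrays. The groups overlapped over nearly their whole range, and 1 array of each group was under 20. The difference was -0.28 ± 0.53 (SE, 95% interval -1.52 to 0.96; limma adjusted p = 0.99997), and it became 0.19 without stimulated replicate 3 and 0.09 without unstimulated replicate 2. The interval of Il6 held folds from 0.349 to 1.95, so neither direction was resolved at this scatter. Tnf, the prototype of its family and an activator of endothelium and macrophages, was dim and even. It had 37.3, 32.0 and 37.4 on the stimulated arrays, against 32.3, 31.1 and 32.9 on the unstimulated arrays. Its difference of 0.14 ± 0.16 (SE, limma adjusted p = 0.99997) had a 95% interval of -0.22 to 0.51, or folds of 0.857 to 1.43.

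**Figure D2:**
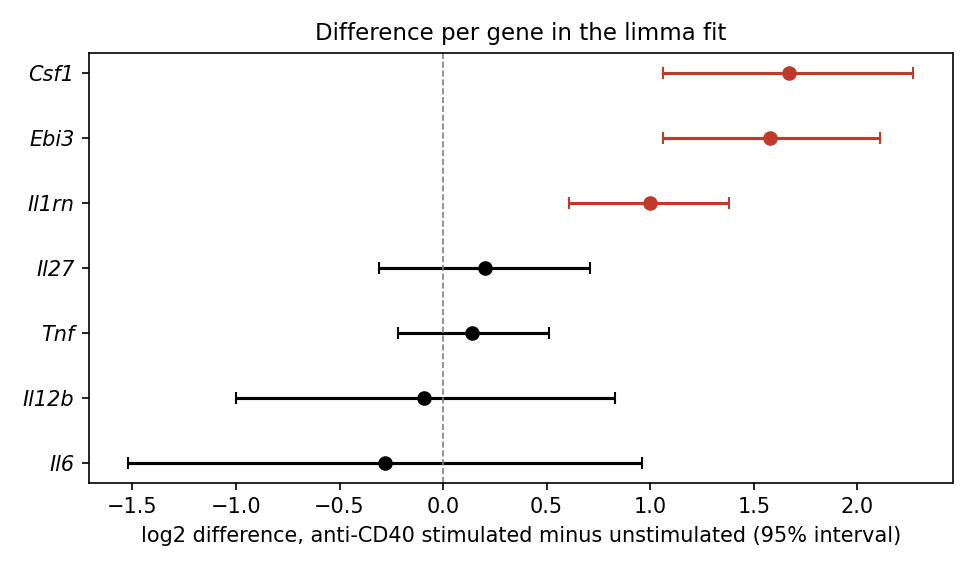
Log2 difference of each gene (x axis, anti-CD40 stimulated minus unstimulated) in the limma fit, with 95% intervals, ordered by size. Red marks genes whose groups do not overlap, and these 3 have intervals above 0 (Csf1 1.06 to 2.27, Ebi3 1.06 to 2.11, Il1rn 0.61 to 1.38), while the intervals of the other 4 hold 0.

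The promoters of these genes are shown because CD40 signals through NF-kappa B and because Csf1, Ebi3 and Il1rn had higher stimulated values while Il6 and Il12b did not. RefSeq sequences (GRCm38.p6) were found for 6 of the 7 genes. The 250 bases before the start are printed for 5 of them (the window of Tnf was searched and is not printed), 5′ to 3′ along the gene's strand, with the match to the NF-kappa B consensus in capitals for Ebi3, Csf1 and Il6, and the match to the AP-1 motif in capitals for Il1rn. Il1rn has 3 annotated starts, and the first of them is shown. The windows before its other starts held no match to the AP-1 motif. Which start these cells use was not measured.
Ebi3, chr17:55952373-55952622, plus strand: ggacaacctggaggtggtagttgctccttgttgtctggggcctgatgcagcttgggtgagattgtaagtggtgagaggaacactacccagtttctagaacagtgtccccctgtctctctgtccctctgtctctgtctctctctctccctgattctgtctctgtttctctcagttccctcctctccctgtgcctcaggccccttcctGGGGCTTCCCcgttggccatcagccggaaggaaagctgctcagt
Csf1, chr3:107760470-107760719, minus strand: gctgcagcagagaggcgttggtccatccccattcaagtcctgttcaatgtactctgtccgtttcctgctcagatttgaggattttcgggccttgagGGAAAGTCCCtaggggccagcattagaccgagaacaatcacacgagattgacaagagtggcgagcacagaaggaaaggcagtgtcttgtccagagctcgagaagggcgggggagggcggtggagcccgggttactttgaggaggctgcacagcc
Il1rn, chr2:24336610-24336859, plus strand: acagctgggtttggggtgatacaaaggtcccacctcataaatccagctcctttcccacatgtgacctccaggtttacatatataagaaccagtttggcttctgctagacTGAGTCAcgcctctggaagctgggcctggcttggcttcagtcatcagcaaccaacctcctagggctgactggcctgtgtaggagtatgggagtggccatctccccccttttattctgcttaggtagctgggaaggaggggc
Il6, chr5:30012864-30013113, plus strand: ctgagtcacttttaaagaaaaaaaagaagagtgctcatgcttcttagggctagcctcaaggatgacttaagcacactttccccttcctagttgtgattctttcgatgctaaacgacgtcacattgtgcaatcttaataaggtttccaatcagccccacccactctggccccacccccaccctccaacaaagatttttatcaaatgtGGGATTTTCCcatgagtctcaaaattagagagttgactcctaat
Il12b, chr11:44399813-44400062, plus strand: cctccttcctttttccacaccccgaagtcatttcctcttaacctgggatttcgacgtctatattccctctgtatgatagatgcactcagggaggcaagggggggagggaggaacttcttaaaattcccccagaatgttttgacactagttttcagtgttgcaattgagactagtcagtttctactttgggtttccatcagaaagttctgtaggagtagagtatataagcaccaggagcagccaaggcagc
Searched on both strands, the NF-kappa B consensus was matched 1 time in Ebi3, from -44 to -35, 1 time in Csf1, from -154 to -145 on the opposite strand, and 1 time in Il6, from -44 to -35. It was matched in 3.9% of all 32851 mouse promoter windows of the same length. The matches thus lay in promoters of genes with higher stimulated values and also in that of Il6, whose groups overlapped. The windows of Il1rn, Il12b and Tnf did not hold these letters. The AP-1 motif TGANTCA was matched in Il6, from -249 to -243, and before the first start of Il1rn, from -141 to -135, and in 6.75% of all windows. It overlapped no match of the other motifs. The interferon response core GAAANNGAAA was matched in 0 of the windows of these 6 genes and in 2.98% of all windows. These matches are descriptions of sequence, and binding was not measured.

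The genes were then placed among their families, receptors and regulators, in 13 lists chosen by function. Besides the 7 genes these lists held 134 genes, of which 85 were measured. Of these 85 genes, 0 were called by limma, and at an unadjusted p under 0.05, 3 were higher and 3 lower. The shares of all genes at that threshold were 2.07% and 1.42%. Their median difference was 0.05, with 45 positive and 40 negative differences, and 2 genes without overlap were higher and 3 lower in stimulated cells. The genes without overlap made up 2.35% and 3.53% of the 85, against 3.68% and 3.46% of all genes.

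Of the receptor chains for IL-12, IL-23 and IL-27 all 5 were measured, 0 were called (0 also at an unadjusted p under 0.05), and their median difference was -0.05. Il12rb2, the signalling chain of the IL-12 receptor, had 495.2, 176.0 and 165.4 on the stimulated arrays, against 1121, 307.1 and 510.0 on the unstimulated arrays, and differed by -1.20 ± 0.57 (SE). Il6st, the gp130 chain that the IL-6 and IL-27 receptors share, had 958.3, 490.7 and 533.8 on the stimulated arrays, against 1486, 725.3 and 1058 on the unstimulated arrays, and differed by -0.73 ± 0.35 (SE). The groups overlapped for both, and Il12rb1, the chain shared by the IL-12 and IL-23 receptors, differed by 0.12. For the IL-6 receptor family 3 of 6 chains were measured, 0 were called and the differences were all negative (median -0.23). The groups did not overlap for the IL-6 receptor chain Il6ra (-0.23 ± 0.16, SE, limma unadjusted p = 0.202) and for Cntfr (-0.17 ± 0.16, SE, limma unadjusted p = 0.325). Both had lower stimulated values, a separation found for 3.46% of all genes. The separation was small, with a highest stimulated value of 50.4 for Il6ra against a lowest unstimulated value of 51.0. Other ligands of the IL-6 family differed by 0.39 (Lif), 0.28 (Osm) and -0.12 (Clcf1), with 4 of 8 measured including Il6 and 0 called.

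In the IL-1 family, 5 of 15 ligands and antagonists were measured and 0 were called, with a median of -0.01. Il1rn was the 1 member of this list whose groups did not overlap. Il18bp, the secreted inhibitor of IL-18, differed by 0.14 and Il1f10 by -0.05. Of 16 receptors, adaptors and processing genes 9 were measured, 0 were called, and 1 was higher and 2 were lower at an unadjusted p under 0.05. Over all genes those shares were 2.07% and 1.42%. Casp1, the protease that activates IL-1 beta and IL-18, differed by -0.79 ± 0.28 (SE), the IL-18 receptor chain Il18r1 by -0.78 ± 0.29 (SE) and the inflammasome adaptor Pycard by 0.55 ± 0.21 (SE).

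Among colony-stimulating and growth factors, 5 of 8 were measured, 0 were called and the median was 0.10. Csf1 stood at 1.67, while Vegfa, Flt3l and Csf3 differed by 0.34, 0.10 and 0.08. For their receptors 6 of 7 were measured, 0 were called (1 was lower at an unadjusted p under 0.05), 5 differences were negative and the median was -0.25. Csf2rb2, a beta chain of the IL-3 receptor in mice, differed by -0.98 ± 0.38 (SE), Csf2rb by -0.68 and Flt3, the receptor that sustains dendritic cell development, by -0.31. In the TNF list 10 of 11 genes were measured, 0 were called (1 was higher at an unadjusted p under 0.05) and the median was 0.09. Adam17, the protease that sheds TNF from the cell surface, differed by 0.72 ± 0.29 (SE), Tnfrsf1a, the widely expressed TNF receptor, by 0.34, and its adaptor Tradd by 0.19. Of 19 other cytokines 6 were measured, 0 were called (0 also at an unadjusted p under 0.05) and the median was -0.02. Il15, which supports CD8 T and NK cells, differed by -0.18, Tgfb2 by 0.18 and Il17a by -0.17.

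**Figure D3:**
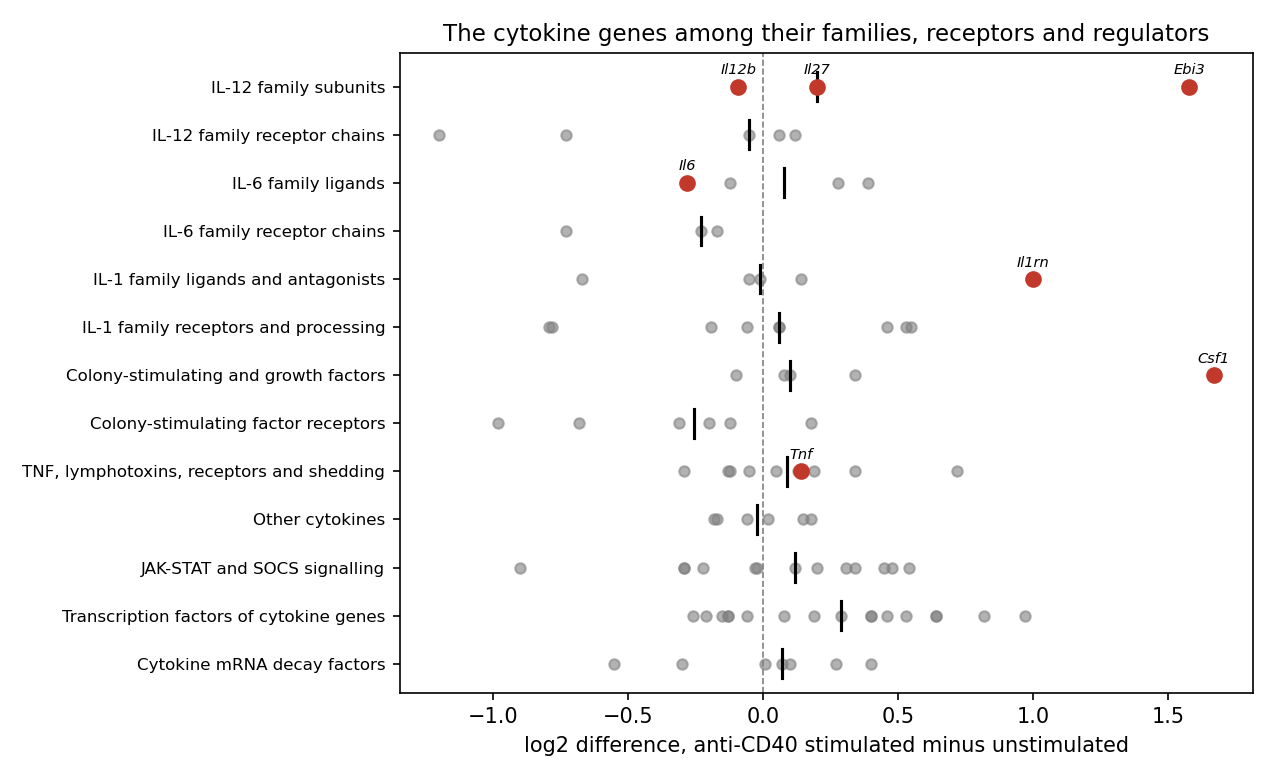
Log2 difference (x axis, anti-CD40 stimulated minus unstimulated) of every measured gene in the 13 lists (rows). Red points are the cytokine genes named beside them, grey points the other list members and black bars the list medians. Csf1 (1.67), Ebi3 (1.58) and Il1rn (1.0) lie to the right of the other members of their lists.

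Of 15 JAK, STAT and SOCS genes 13 were measured and 0 were called (1 was higher at an unadjusted p under 0.05), with a median of 0.12. Socs2, a feedback inhibitor of cytokine signalling, differed by 0.48 ± 0.20 (SE) without overlap of the groups, the kinase Jak2 by -0.90 ± 0.39 (SE) and Stat5a by 0.45. Of 19 transcription factors 17 were measured, 0 were called (0 also at an unadjusted p under 0.05), 11 differences were positive and the median was 0.29. Irf1, a known activator of IL-12 p35 and IL-27 p28 transcription, had 1100.5, 416.1 and 771.0 on the stimulated arrays, against 689.4, 327.4 and 281.9 on the unstimulated arrays, and differed by 0.82 ± 0.45 (SE). Junb, an AP-1 subunit, differed by 0.97 ± 0.57 (SE) and Irf4 by 0.46. Of 8 entries for factors that control the decay of cytokine mRNA 7 were measured and 0 were called (0 also at an unadjusted p under 0.05). Zfp36l1, which promotes decay, differed by -0.55, the nuclease gene Zc3h12a by 0.40 and Elavl1, which stabilises transcripts, by 0.27.

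The genes whose pattern over the 6 arrays was most like that of Ebi3, Csf1 and Il1rn were ranked by Pearson correlation among 4099 genes at or above the median brightness with an SD of at least 0.3. Because the groups stand apart for these genes, the correlation mainly ranks how cleanly a gene separates them, and it is given with no p. For Ebi3 they were Csrp2 (r = 0.991), the heat shock gene Hspa2 (0.983) and the tetraspanin gene Cd81 (0.982), for Csf1 they were the phosphatase gene Dusp14 (0.991), Bcl2l1 (0.989) and Nup54 (0.983), and for Il1rn they were Ube2l6 (0.994), Csrp2 (0.992) and Vim (0.988), each over 6 arrays. Csrp2, which encodes a LIM domain protein, was near both Ebi3 and Il1rn in pattern and differed by 1.64 ± 0.20 (SE, limma adjusted p = 0.144). Bcl2l1, the BCL-XL gene that restrains apoptosis, differed by 1.80 ± 0.24 (SE, limma adjusted p = 0.203). These 8 genes had higher values on all stimulated arrays, and 0 of them were called.

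Markers of the sorted and of other cells were read on the same arrays. Of 11 cDC1 markers 10 were measured, and their summed intensity was 3743 to 8420 on the stimulated arrays and 2591 to 6462 on the unstimulated arrays. Irf8, Batf3 and Ly75 ran from 375.2 to 5316, Cadm1 from 160.9 to 254.6 and Clec9a from 70.4 to 108.9 over the 6 arrays. The other 5, Xcr1, Cd8a, Itgae, Naaa and Wdfy4, were below the all-gene median of 52.4 on every array. Xcr1, on which the cells were sorted, read 22.0 to 30.1 on the stimulated and 18.5 to 24.0 on the unstimulated arrays. Monocyte and macrophage markers, of which 2 of 11 were measured, summed to 62 to 110 on the stimulated and 63 to 83 on the unstimulated arrays. The 1 neutrophil marker measured of 7 read 19 to 23 on the stimulated and 19 to 31 on the unstimulated arrays. T cell markers (4 of 8) summed to 134 to 255 on the stimulated and 119 to 191 on the unstimulated arrays. B cell markers (3 of 6) summed to 90 to 139 on the stimulated and 96 to 162 on the unstimulated arrays. Markers of cDC2 (3 of 9) summed to 104 to 174 on the stimulated and 79 to 105 on the unstimulated arrays. Stroma and keratinocyte markers (5 of 6) summed to 156 to 221 on the stimulated and 178 to 227 on the unstimulated arrays. Of the Langerhans cell markers (3 of 3, summed to 98 to 139 on the stimulated and 98 to 118 on the unstimulated arrays), Epcam, which encodes the CD326 used to exclude cells, read 41.2, 45.4 and 33.3 on the stimulated arrays, against 26.2, 24.2 and 29.9 on the unstimulated arrays. The part of these markers in the values of Csf1, Ebi3 and Il1rn was not tested.

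Csf1, Ebi3 and Il1rn kept their direction over the 6 refits that each left out 1 array. Their groups do not overlap, so leaving out an array could not turn the sign. Their differences ran from 1.44 to 1.92, from 1.46 to 1.77 and from 0.92 to 1.05, and 0 of them were called in any of these refits, in which 0 genes of the whole table were called. Il27 stayed between 0.02 and 0.32 and Tnf between 0.11 and 0.22. Il12b ran from -0.46 to 0.20 and Il6 from -0.71 to 0.19. With array weights in place of equal weights, limma called 3 of the 7 higher, Ebi3 (adjusted p = 0.00893), Csf1 (0.013) and Il1rn (0.0299), at differences of 1.70, 1.62 and 0.92. That fit called 28 genes of the whole table higher (0.219%) and 18 lower. With the arrays' interquartile ranges as a covariate, limma called Ebi3 alone of the 7 (1.5, adjusted p = 0.0165), where 11 genes of the whole table were higher (0.0861%) and 4 lower.

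**Figure D4:**
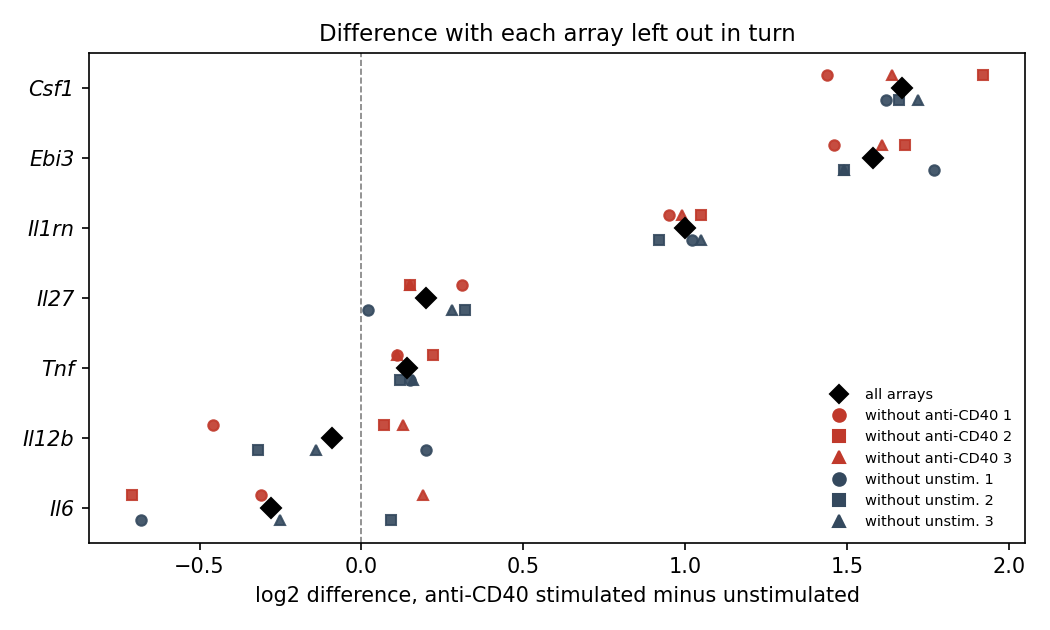
Log2 difference (x axis, anti-CD40 stimulated minus unstimulated) of each gene with all 6 arrays (black diamonds) and with each array left out in turn (red for stimulated arrays left out, dark blue for unstimulated ones, shapes for the replicate number). Csf1, Ebi3 and Il1rn stay at or above 0.92, while Il12b and Il6 fall on both sides of 0.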

How the data were processed

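RNA of 6 samples was hybridised to Affymetrix arrays, 3 anti-CD40 stimulated and 3 unstimulated. The authors made the values with RMA (Affymetrix Expression Console), per the submitters' processing notes, without stated version or settings. The deposited values are intensities of 17551 probe sets between 6.97 and 13701, with 0 missing, so log2 was taken of each before any fit. At least 1 group geometric mean was over 20 in every probe set (lowest 20.001), as a filter would leave, though no label names one. Annotation gave 1 symbol for 13963 probe sets, several for 970 and none for 2618. Genes with more than 1 probe set (677) were represented by the brightest, which left 12780 genes.

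A model with the group as its only term was fitted by lmFit and eBayes (limma 3.58.1, R 4.3.3) to all 6 arrays, two-sided, with Benjamini-Hochberg adjustment over all genes. The procedure was tested on simulated data with independent noise for each gene and array. Deviations shared by the genes of an array were not simulated, so that test does not cover them. The number of arrays limits the precision. Samples with the same replicate number were not taken as pairs, since no label says that a number marks a shared source. The correlations of their deviations from the group means were 0.727, 0.594 and 0.061 for numbers 1, 2 and 3. Correlations between arrays of unlike numbers ran from -0.686 to 0.194. Deviations from a group mean cancel out within the group, so a positive correlation with 1 array goes with a negative one elsewhere. The contrast of like and unlike numbers is in part set by this arithmetic. Whether a number marks a shared source was not tested. The genes, lists and tests were chosen with earlier results of these data known. Named genes were the 7 cytokine genes, up to 3 members per list with the largest moderated statistic (or all that passed), and the 3 most alike in pattern to each of Ebi3, Csf1 and Il1rn. Il12a and Il23a as missing partners, and the marker genes given with values, were named outside this rule, the markers after their values were seen. Protein sequences were not used here. Promoters came from RefSeq, and figures were drawn with matplotlib 3.10.9. Alternatives were another normalisation, centring, a filter on dim genes, another variance model, array weights, a replicate block, the interquartile range as a covariate, other probe set rules and leaving out arrays.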

Additional observations from a re-analysis of the deposited data

How the results depend on the processing

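Over 18 refits (17 for Tnf and Il6, which a filter on the dimmest genes removed), Ebi3, Csf1, Il1rn, Il27 and Tnf kept their direction. Several refits could not change it. The filter, the other variance model, the replicate block and, with 1 probe set per gene, the probe set rules leave the difference itself unchanged. For Ebi3, Csf1 and Il1rn, leaving out arrays could not turn the sign either, since their groups do not overlap. Array weights called 3 of the 7 genes, Ebi3 (1.70), Csf1 (1.62) and Il1rn (0.92), and the interquartile range as a covariate called 1, Ebi3 (1.5, limma adjusted p = 0.0165). With the replicate number as a block 2 were called, Ebi3 (1.58, limma adjusted p = 0.00812) and Csf1 (1.67, limma adjusted p = 0.0371), although no label says that a number marks a shared source. The deviations of each stimulated array correlated best with those of the unstimulated array of its own number. Deviations cancel out within a group, so these correlations are not independent of each other. Unstimulated replicate 3, in turn, correlated better with stimulated replicate 2 (0.194) than with its own number (0.061). Over all genes, 2 were called higher and 0 lower. The counts were 5 and 1 after a further quantile normalisation, 3 and 1 after centring on medians, 28 and 18 with array weights, 30 and 8 with the replicate block, and 11 and 4 with the covariate. Leaving out any 1 array gave 0 and 0, as did leaving out both arrays of a number, an alternative chosen after seeing the data. Fewer samples are fitted there. Without 1 array Il12b ran from -0.46 to 0.20 and Il6 from -0.71 to 0.19, and without both arrays numbered 3 they were 0.08 and 0.22. The cause of these changes was not tested. Background was not analysed here. Whether signal near background limits Il6, Tnf and the unstimulated values of Ebi3 and Csf1 was therefore not tested.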
